A study of Homo sapiens with 15 samples.

Results

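To follow chromatin accessibility at the genes of the transforming growth factor β (TGF-β) pathway when SETD2 was lost and re-expressed, ATAC-seq peaks were examined at 10 loci. These were the ligand genes TGFB1, TGFB2 and TGFB3, the receptor genes TGFBR1, TGFBR2 and TGFBR3, and the SMAD genes SMAD2, SMAD3, SMAD4 and SMAD7. The genes were chosen by name, not by a measured value, out of 20033 protein-coding genes of GENCODE v44. A peak lay in the window of 19429 of those genes in at least 1 library. The window of a gene was its body plus 10 kb on each side.

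The libraries came from RPTEC cells, an epithelial line of the human renal proximal tubule that carries the telomerase gene hTERT. All lines shared hTERT and its selection with G418. ATAC-seq marks open DNA by the insertions of the Tn5 transposase. There were 5 groups of 3 libraries. WT was the line with intact SETD2, the methyltransferase that places the trimethyl mark on lysine 36 of histone H3. KO1 and KO2 were SETD2 knockout clones, each grown from a single cell after CRISPR cutting in exon 3. Rescue1 and Rescue2 were single colonies of knockout cells that carried full-length SETD2 with a FLAG tag, delivered by lentivirus and selected with blasticidin. The labels do not name the knockout clone behind each rescue clone, while the names of the deposited lists tie both to KO2. Each knockout or rescue line was thus 1 clone, its libraries were replicates of that clone, and clone and genotype cannot be told apart beyond the pair of clones per genotype. No label names treatment with TGF-β.

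TGF-β ligands are secreted in a latent form and, once released, bind the type II receptor TGFBR2, which phosphorylates the type I receptor TGFBR1. TGFBR1 then phosphorylates SMAD2 and SMAD3, which join SMAD4 and act on genes in the nucleus, while SMAD7 blocks the receptor and is itself a target of the pathway. In renal tubule cells this pathway is a classical inducer of the epithelial to mesenchymal transition.

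The 15 peak lists held 197527 to 266011 peaks. Their total length was 51.7 ± 3.91 Mb in WT (SD, n = 3). KO libraries reached 55.9 ± 3.13 Mb and rescue libraries 58.3 ± 5.36 Mb (SD, n = 6 each). WT replicate 1, at 56.2 Mb, stood above the other WT libraries at 49.4 and 49.5 Mb. Of 13 genes fixed as tubule epithelial markers, 7 to 9 had a peak at the start in every library. PAX8, CDH16, KRT8 and KRT18 did so in all 15, and HNF4A, CUBN and AQP1 in none. The start of CDH1, the epithelial cadherin, held a peak in 3 of 3 WT, 1 of 6 KO and 0 of 6 rescue libraries. Of 5 fibroblast markers, 2 had a start peak in each WT library, 3 to 4 in the KO and 1 to 2 in the rescue libraries. COL1A1 had one in 2 KO1 libraries and COL1A2 in none. DCN, a matrix proteoglycan, had one in 0 of 3 WT, 6 of 6 KO and 1 of 6 rescue libraries. The endothelial markers were at 1 to 2 of 4 genes and the 5 blood markers at 0 in every library. The part of these cell type signals in the results at the TGF-β loci was not tested. The peak lists do not read the edited bases, so the SETD2 knockout could not be checked in them. In bulk cells, a few open cells and weak opening in all of them cannot be told apart.

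Overlapping peaks were merged across libraries, and a merged region with peaks of at least 2 libraries was kept as a consensus region. The 10 loci held 256 of the 295008 consensus regions. The largest number lay at SMAD3, with 50, followed by TGFBR3 with 47, TGFB2 and TGFBR2 with 33 each and SMAD7 with 23. TGFB1 had 19, SMAD2 17, SMAD4 14, TGFBR1 12 and TGFB3 8. Of the 256, 160 were intronic, 52 lay within 1 kb of an annotated transcript start of the gene, 13 touched an exon, and 16 and 15 lay in the downstream and upstream flanks. A peak was present in all 15 libraries at 109 regions (42.6%), against 35.6% of all consensus regions. At TGFB1 this held for 15 of 19 regions and at TGFB3 and TGFBR1 for 2 of 8 and 3 of 12.

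The sequences that carry the differences described below are shown first. They are the forward strand of hg38, with capitals marking the letters of 3 motifs on either strand: TGANTCA, the core bound by AP-1, CAGAC, the SMAD box, and GGAATG, the core bound by TEAD factors. The first run is the 300 bases around the strongest summit of a region in intron 4 of TGFBR3 (chr1:91757743-91758042). It begins just before the region, which spans chr1:91757750-91758119. This was the gained region with the strongest peaks, and it had a peak in every KO and no WT library.
TGFBR3 intron 4, gained in KO: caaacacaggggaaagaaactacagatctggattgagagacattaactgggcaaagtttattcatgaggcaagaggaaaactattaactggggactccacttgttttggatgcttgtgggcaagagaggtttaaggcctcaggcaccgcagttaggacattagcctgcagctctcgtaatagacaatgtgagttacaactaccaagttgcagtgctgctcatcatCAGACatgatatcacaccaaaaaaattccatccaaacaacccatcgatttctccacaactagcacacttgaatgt
The next 3 runs are regions that lost their peak. They lay in intron 1 of TGFBR2 (chr3:30629293-30629453) and intron 4 of SMAD4 (chr18:51053939-51054089), both without a peak in KO, and in intron 2 of TGFB2 (chr1:218426328-218426527), without a peak in rescue.
TGFBR2 intron 1, lost in KO: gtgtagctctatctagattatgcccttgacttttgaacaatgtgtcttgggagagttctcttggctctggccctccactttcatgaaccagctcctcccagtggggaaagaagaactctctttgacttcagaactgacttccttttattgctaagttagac
SMAD4 intron 4, lost in KO: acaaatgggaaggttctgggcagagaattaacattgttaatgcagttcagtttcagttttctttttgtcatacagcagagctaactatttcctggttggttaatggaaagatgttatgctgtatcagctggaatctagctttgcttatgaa
TGFB2 intron 2, lost in rescue: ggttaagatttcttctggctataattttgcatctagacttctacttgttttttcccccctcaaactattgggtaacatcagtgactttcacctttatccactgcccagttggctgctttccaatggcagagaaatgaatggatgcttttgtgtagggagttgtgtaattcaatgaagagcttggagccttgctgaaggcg
The last 2 regions had a peak in every library, but of a different rank in WT and KO. The runs are the 300 bases around the strongest summit of regions in TGFBR2 (chr3:30673010-30673309) and TGFB2 (chr1:218409879-218410178).
TGFBR2 at 66524 bp from the start, rank higher in KO: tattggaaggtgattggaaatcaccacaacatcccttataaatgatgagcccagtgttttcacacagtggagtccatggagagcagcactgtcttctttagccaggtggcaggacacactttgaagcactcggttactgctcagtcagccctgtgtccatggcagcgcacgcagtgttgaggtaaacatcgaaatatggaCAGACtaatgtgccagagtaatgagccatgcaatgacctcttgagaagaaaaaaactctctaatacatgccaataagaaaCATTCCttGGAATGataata
TGFB2 at 64728 bp from the start, rank higher in KO: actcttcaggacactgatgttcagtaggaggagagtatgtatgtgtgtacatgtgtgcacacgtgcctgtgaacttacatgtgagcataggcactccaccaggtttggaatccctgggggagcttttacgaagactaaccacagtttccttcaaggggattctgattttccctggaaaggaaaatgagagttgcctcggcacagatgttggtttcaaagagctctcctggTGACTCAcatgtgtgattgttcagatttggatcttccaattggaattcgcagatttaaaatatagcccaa
How far a region is repeated was measured by the share of its 31-base stretches that occur more than once in hg38, which was 0% for the TGFBR3 region and the regions that lost a peak. It was 20.9% for the gained SMAD2 region, 85.2% for a region downstream of TGFB2 and 19.2% for a region in intron 1 of TGFBR2, both gained in KO and not printed. Over all 256 regions the median was 0%, and 7 regions exceeded 50%.

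The bases before 2 of the starts are given for comparison, as RefSeq places them on GRCh38.p14: TGFBR2 (chr3:30606351-30606600) and SMAD3 (chr15:67065352-67065601), both on the plus strand and read 5′ to 3′ up to the start.
TGFBR2 promoter: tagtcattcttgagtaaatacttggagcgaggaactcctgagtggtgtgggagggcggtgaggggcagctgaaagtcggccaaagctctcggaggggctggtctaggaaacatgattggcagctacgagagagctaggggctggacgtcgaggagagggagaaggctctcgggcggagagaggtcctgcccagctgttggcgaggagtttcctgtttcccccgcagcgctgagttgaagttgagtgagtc
SMAD3 promoter: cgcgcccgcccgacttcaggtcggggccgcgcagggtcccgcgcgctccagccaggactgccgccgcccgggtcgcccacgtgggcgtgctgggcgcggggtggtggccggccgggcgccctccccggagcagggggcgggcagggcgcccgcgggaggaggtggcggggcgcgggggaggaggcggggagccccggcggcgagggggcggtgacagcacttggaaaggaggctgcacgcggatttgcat
Neither run holds any of the 3 motifs. The SMAD3 run is 80.8% G and C with 36 CG pairs, and the TGFBR2 run 58.4% with 12. In windows of 300 bases around the summits, TGANTCA was found in 27.7% of the 256 member regions and 32.5% of all consensus regions. CAGAC was found in 44.1% against 48.3%, and GGAATG in 23.8% against 20.8%. The palindrome GTCTAGAC, which shares the letters AGAC with the SMAD box but does not contain CAGAC, was in 0 member windows and in 0.21% of all. Among 35116 RefSeq promoters of the same length, the shares were 7.71% for TGANTCA, 45.3% for CAGAC, 14% for GGAATG and 0.202% for GTCTAGAC. Of the 16 windows of regions called below, 1 held TGANTCA, 6 CAGAC and 3 GGAATG. A match of letters says nothing of whether a factor was bound.

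Bases under peaks were then summed over each window. Per length, SMAD7, SMAD3 and TGFB1 were the most covered loci in WT, with 8.66 ± 0.825%, 8.52 ± 0.871% and 8.44 ± 0.791% of the window under peaks (SD, n = 3). These 3 values lay within 1 SD of each other. TGFB2 followed with 5.23 ± 0.425% and TGFBR2 with 4.93 ± 0.412%, then TGFBR3 with 4.1 ± 0.25%, TGFB3 with 3.75 ± 0.44%, SMAD4 with 3.51 ± 0.253%, TGFBR1 with 3.23 ± 0.193% and SMAD2 with 2.71 ± 0.158%. Neighbours in the order from TGFB2 to TGFBR1 differed by less than the sum of their SDs, other than TGFBR2 and TGFBR3.

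**Figure D1:**
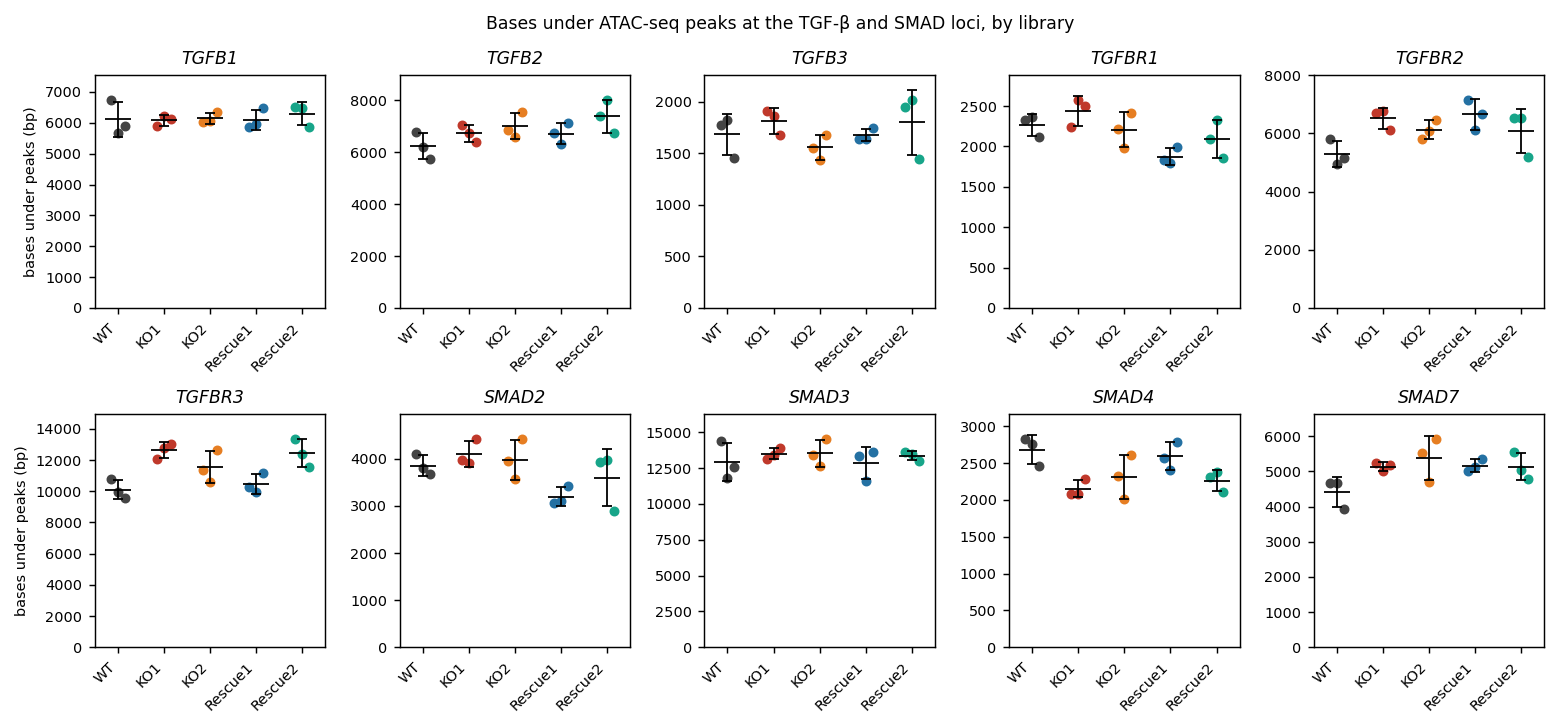
Bases under peaks (bp, axis from 0) in the window of each of the 10 genes, with 1 point per library, and the mean and SD of the 3 libraries of each line as bars. The 6 KO points of TGFBR2 and SMAD7 lie above the 3 WT points, and at the other 8 loci the groups overlap.

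In KO against WT, the libraries of the 2 groups did not overlap at 2 of the 10 loci, TGFBR2 and SMAD7, both higher in KO. Over all genes 12.6% were higher and 11.3% lower by the same rule, so 2 of 10 is near the background and not a result about these genes. With 3 libraries against 6, the exact permutation test cannot give a p below 0.0238. No gene reached an adjusted p under 0.05 (0.0% of those tested), although 6058 genes had an unadjusted exact permutation p under 0.05. When rescue was compared with KO, no member was without overlap, against 10.1% of all genes higher and 2.75% lower. There the adjusted p was under 0.05 for 23.8% of all genes and for 0 of 10 members. The log2 ratio of mean bases, as a median over the members, was 0.07 in KO against WT and -0.01 in rescue against KO, and over all genes it was -0.01 and 0.10. Both comparisons use the same KO libraries. For the rescaled values and other settings below, the share of all genes that separate is not given.

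Among the ligands, TGFB1, the most widely expressed isoform, did not separate the lines in bases under peaks. Its window (chr19:41301587-41353922 and flanks, which also overlap other genes) held 6753, 5661 and 5910 bases under peaks in WT, 5883 to 6357 in the 6 KO and 5850 to 6527 in the 6 rescue libraries. KO was higher than WT by 6.5 bases on average (exact permutation p = 0.952), and rescue higher than KO by 78.5 (exact permutation p = 0.61). Every KO and rescue value lay within the WT range. Relative to all bases under peaks in a library, TGFB1 held 114.6 to 120.2 bases per Mb in WT, 103.4 to 115.7 in KO and 100.2 to 112.1 in rescue. On this scale KO differed from WT by -8.48 (exact permutation p = 0.0476), with an overlap, and all rescue libraries lay below WT.

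TGFB2, an isoform prominent in development and in mesenchymal tissue, lies on the plus strand at chr1:218345336-218444619. WT libraries held 6765, 6202 and 5754 bases, KO1 libraries 7058, 6739 and 6400, and KO2 libraries 6840, 6594 and 7558. KO was thus 10% higher on average, with 3 of 6 KO libraries above all WT libraries (exact permutation p = 0.0952, adjusted p = 0.237 over all genes). With 150000 peaks per library KO was 582 bases higher, without overlap (exact permutation p = 0.0238). Per Mb under peaks the groups overlapped, at 116.3 to 125.5 bases in WT and 113.6 to 131.5 in KO. Rescue libraries ran from 6303 to 8030 and overlapped both groups (rescue against KO, 188 bases higher, exact permutation p = 0.552). TGFB3, the ligand gene with the fewest regions, held 1777, 1818 and 1457 bases in WT, 1438 to 1913 in KO and 1439 to 2020 in rescue, with exact permutation p = 0.976 and 0.667 in the 2 comparisons. All of its regions also lay in IFT43, another protein-coding gene. Those at -3868 and -4348 bp from the TGFB3 start lay within 1 kb of a start of IFT43.

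TGFBR2 (chr3:30606601-30694142, plus strand) encodes the receptor that binds the ligand first. Its WT libraries held 5803, 4956 and 5155 bases. The KO1 libraries held 6691, 6764 and 6107, and the KO2 libraries 5816, 6094 and 6464. The lowest KO value was 13 bases above the highest WT value, so the separation was complete but narrow. KO exceeded WT by 1018 bases or 19.2% (exact permutation p = 0.0238, adjusted p = 0.0998 over all genes). Rescue1 libraries held 7165, 6115 and 6679 and Rescue2 libraries 6521, 6527 and 5197. Rescue was 44.7 bases above KO (exact permutation p = 0.903), and the only rescue library inside the WT range was Rescue2 replicate 3. Relative to all bases under peaks in a library, KO stayed higher by 10.8 bases per Mb but the groups touched (exact permutation p = 0.0476). With lists of equal length, 150000 peaks each, the difference was 358 bases (exact permutation p = 0.19).

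TGFBR3, which encodes betaglycan, a co-receptor that presents TGF-β2 to the signalling receptors, is the longest of the genes (chr1:91680343-91906335, minus strand). WT libraries held 10777, 9922 and 9585 bases, KO1 libraries 12057, 12779 and 13026, and KO2 libraries 11367, 10593 and 12642. Of the 6 KO libraries 5 were above all WT libraries, the exception being KO2 replicate 2. The difference was 1983 bases or 19.6% (exact permutation p = 0.0476, adjusted p = 0.153). Unlike TGFBR2, this locus separated completely under both rescalings. KO was 20.8 bases per Mb under peaks higher, and 2090 bases higher with equal lists (exact permutation p = 0.0238 for each). Per Mb the clones differed, with 224.7 to 231.4 in KO1 and 202.1 to 205.6 in KO2, against 191.8 to 200.8 in WT. The separation of KO2 from WT was thus narrow, and KO1 set most of the difference. Rescue1 held 10280, 9972 and 11181 and Rescue2 13356, 12386 and 11575, so the rescue clones lay on either side of the KO mean of 12077 ± 940 (SD, n = 6; exact permutation p = 0.353).

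TGFBR1, the kinase that phosphorylates the receptor SMADs, lies at chr9:99104038-99154192. WT libraries held 2332, 2360 and 2113 bases and KO libraries 1980 to 2580, with no separation (exact permutation p = 0.714). Rescue1 held 1832, 1797 and 1993 and Rescue2 2094, 2329 and 1858. The difference of rescue from KO was -339 bases or -14.6% (exact permutation p = 0.0238, adjusted p = 0.0772). This pools both KO clones, with means of 2439 ± 180 in KO1 and 2206 ± 219 in KO2 (SD, n = 3 each). The rescue mean was 1984 ± 203 (SD, n = 6). Below all KO libraries were 3 of 6 rescue libraries. On the scale of bases per Mb under peaks, rescue and KO no longer overlapped, with a difference of -7.54 (exact permutation p = 0.00216, the smallest that 6 against 6 allows). How many of all genes separate on this scale is not given here.

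Of the receptor-activated SMAD genes, SMAD2 (chr18:47808957-47931146, minus strand) held 4104, 3795 and 3668 bases in WT and 3570 to 4423 in KO (exact permutation p = 0.429). Rescue1 held 3055, 3102 and 3432, and Rescue2 3939, 3964 and 2900. Rescue differed from KO by -646 bases or -16% (exact permutation p = 0.0238, adjusted p = 0.0772), and 4 of 6 of its libraries lay below every KO library. The KO clone means were 4106 ± 276 in KO1 and 3983 ± 424 in KO2 (SD, n = 3 each). Rescue1 lay wholly below KO, while Rescue2 held 2 libraries inside the KO range. Per Mb under peaks, all 6 rescue libraries were below all 6 KO libraries (difference -14.2, exact permutation p = 0.00216), again without the share of all genes that separate on this scale. Over all genes the median log2 ratio of bases was 0.10 in the same comparison, so the 2 scales are centred differently.

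SMAD3 (chr15:67063763-67195173, plus strand) had the most bases under peaks, 14361, 11790 and 12560 in WT, 12673 to 14543 in KO and 11608 to 13637 in rescue. KO was 623 bases higher (exact permutation p = 0.381) and rescue differed from KO by -419 (exact permutation p = 0.372). WT replicate 1, the widest WT list, was the highest of the WT libraries. Without it KO was 1350 bases above WT and the groups no longer overlapped.

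SMAD4, the partner shared by all receptor SMADs, was the only member lower in KO by more than the WT spread (chr18:51028528-51085045, plus strand). Its regions between -483 and 24785 bp of the start also overlap another annotated protein-coding gene. WT libraries held 2830, 2755 and 2463 bases, KO1 libraries 2087, 2087 and 2286, and KO2 libraries 2320, 2015 and 2610. KO differed from WT by -448 bases or -16.7% (exact permutation p = 0.0476, adjusted p = 0.153), with KO2 replicate 3 the 1 KO library inside the WT range. Per Mb under peaks the groups were separate, with a difference of -12.1 (exact permutation p = 0.0238). Rescue1 held 2575, 2412 and 2792 and Rescue2 2308, 2377 and 2104, with a mean between those of KO and WT (rescue against KO, 194 bases higher, exact permutation p = 0.16).

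SMAD7, the inhibitory SMAD, is the shortest gene of the group after TGFB3 (chr18:48919853-48950965, minus strand). WT libraries held 4677, 4661 and 3939 bases, KO1 libraries 5231, 5008 and 5180, and KO2 libraries 5524, 4706 and 5929. The lowest KO library was 29 bases above the highest WT library. KO was 837 bases or 18.9% higher (exact permutation p = 0.0238, adjusted p = 0.0998), and rescue, with 5016, 5127 and 5362 in Rescue1 and 5548, 5049 and 4799 in Rescue2, differed from KO by -113 bases (exact permutation p = 0.593). KO and WT overlapped under 4 other settings. With 150000 peaks per library its sign turned to -21.7 bases, and with peaks of a −log10 q of at least 5 it was 518 bases (exact permutation p = 0.238). With 50 kb flanks it was 407 bases (exact permutation p = 0.429), and relative to all bases under peaks 8.38 per Mb (exact permutation p = 0.0952).

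The gene starts were open throughout, other than that of SMAD7, which no consensus region covered. A region with a peak in all 15 libraries covered the start of the canonical transcript of 9 members. For SMAD7 the nearest such region (chr18:48951414-48953017) began 449 bases upstream. The start regions of 8 of these 9 genes were not called for a change of rank, as described next, and TGFBR2 had the highest of them, with a median percentile of 87.

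Occupancy of single regions was compared by an all-or-none rule. A gain meant a peak in each library of the first group and in none of the other, and a loss the reverse. Of the 256 member regions, 9 (3.52%) were gained in KO against WT and 5 (1.95%) were lost, against 4.79% and 2.48% of all consensus regions. For rescue against KO, 0 were gained and 2 (0.781%) lost, against 0.91% and 1.24%. The shares were near or below the background and are no result about the pathway as a whole. No p can be given for a single region.

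**Figure D2:**
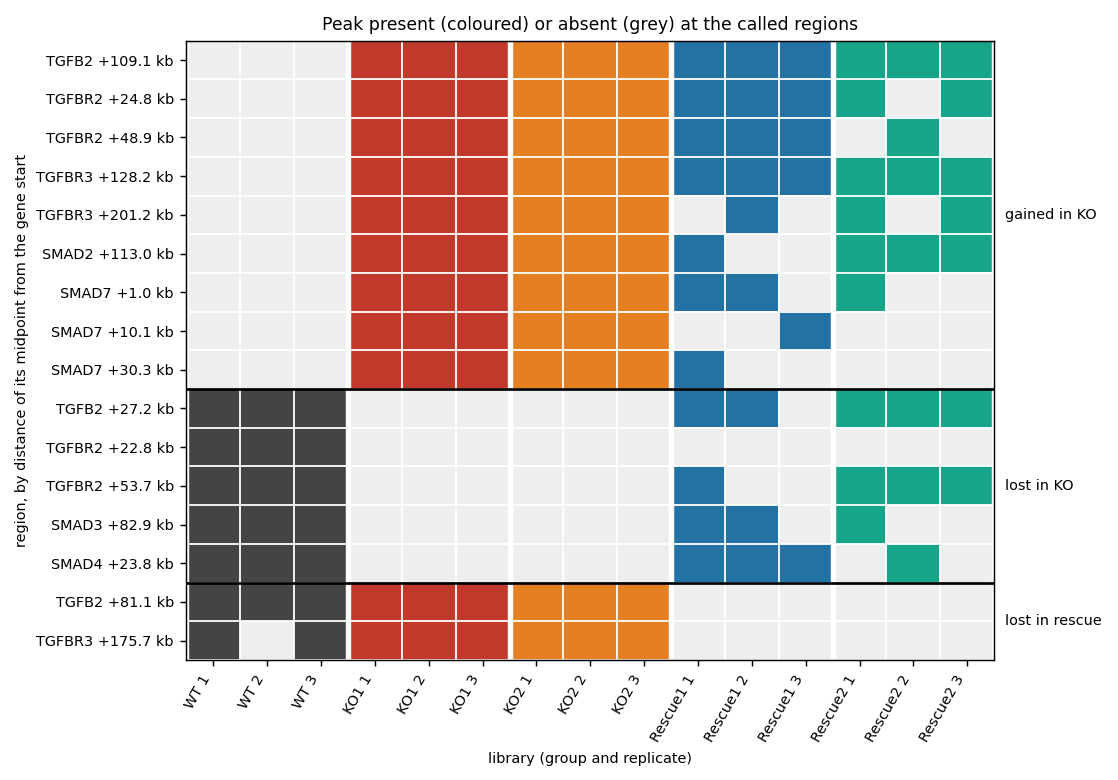
Presence (coloured) or absence (grey) of a peak in each of the 15 libraries (columns) at the 16 called regions (rows, named by gene and by the distance of the midpoint from the gene start in kb). The 9 regions gained in KO are at the top, the 5 lost in KO below them, and the 2 lost in rescue at the bottom, and most of the first 14 show a mixed pattern in the rescue libraries.

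Regions gained in KO lay at 5 of the genes. TGFBR2 had 2, in intron 1 (24771 bp from the start, within 1 kb of another annotated transcript start) and in intron 3 (chr3:30655404-30655609). Both were kept in all 3 Rescue1 libraries, and in 2 and 1 of the Rescue2 libraries. TGFBR3 had 2, in intron 4 and intron 16 (chr1:91684833-91685019). The intron 4 region held the strongest peaks of all gained regions, with a median percentile of 82.7 within the lists, and was present in all 6 rescue libraries. At intron 16, 1 Rescue1 and 2 Rescue2 libraries kept the peak. The TGFB2 downstream region had a median percentile of 65.5 and was also present in all 6 rescue libraries. Only 1 base separated it from another region that held a peak in all 3 KO2 and all 3 Rescue1 libraries and in no other library. Of that neighbour, 61.4% of the 31-base stretches were repeated in the genome. At SMAD2, the gained region (chr18:47817515-47817817) touched an exon at the far end of the gene and was kept in 1 Rescue1 and all 3 Rescue2 libraries.

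SMAD7 had 3 gained regions, the largest number of any member. They lay 976 bp from the start (chr18:48949874-48950104), in intron 3 (chr18:48940819-48940987) and in the last exon of the gene (chr18:48920454-48920826). Their peaks were weak, with median percentiles of 0.976, 1.59 and 13. The region near the start was kept in 2 Rescue1 and 1 Rescue2 libraries. Each of the other two was kept in 1 Rescue1 and no Rescue2 library, so these were the gained regions seen least often after re-expression of SETD2.

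Of the 5 regions lost in KO, 2 lay at TGFBR2. The intron 1 region shown above had a peak in the 3 WT libraries and in none of the 12 KO and rescue libraries. It lay 1783 bases from the intron 1 region that was gained. The intron 3 region (chr3:30660245-30660384) had a peak again in 1 Rescue1 and all 3 Rescue2 libraries. A region in intron 1 of TGFB2 (chr1:218372393-218372620) returned in 2 Rescue1 and all 3 Rescue2 libraries, and a second region 81 bases away (chr1:218372053-218372311) held peaks in 1 WT, 5 KO and all 6 rescue libraries. The SMAD4 intron 4 region, also within 1 kb of another annotated transcript start, returned in all 3 Rescue1 and 1 Rescue2 libraries. A region in intron 1 of SMAD3 (chr15:67148455-67148575) returned in 2 and 1. The SMAD3 peaks were among the weakest of their lists, with a median percentile of 0.403. None of the 5 had a peak in each rescue library. Of the 2 regions lost in rescue, the TGFB2 intron 2 region had a peak in all 9 WT and KO libraries, and a region in intron 13 of TGFBR3 (chr1:91710370-91710532) in 2 of 3 WT and all 6 KO libraries.

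**Figure D3:**
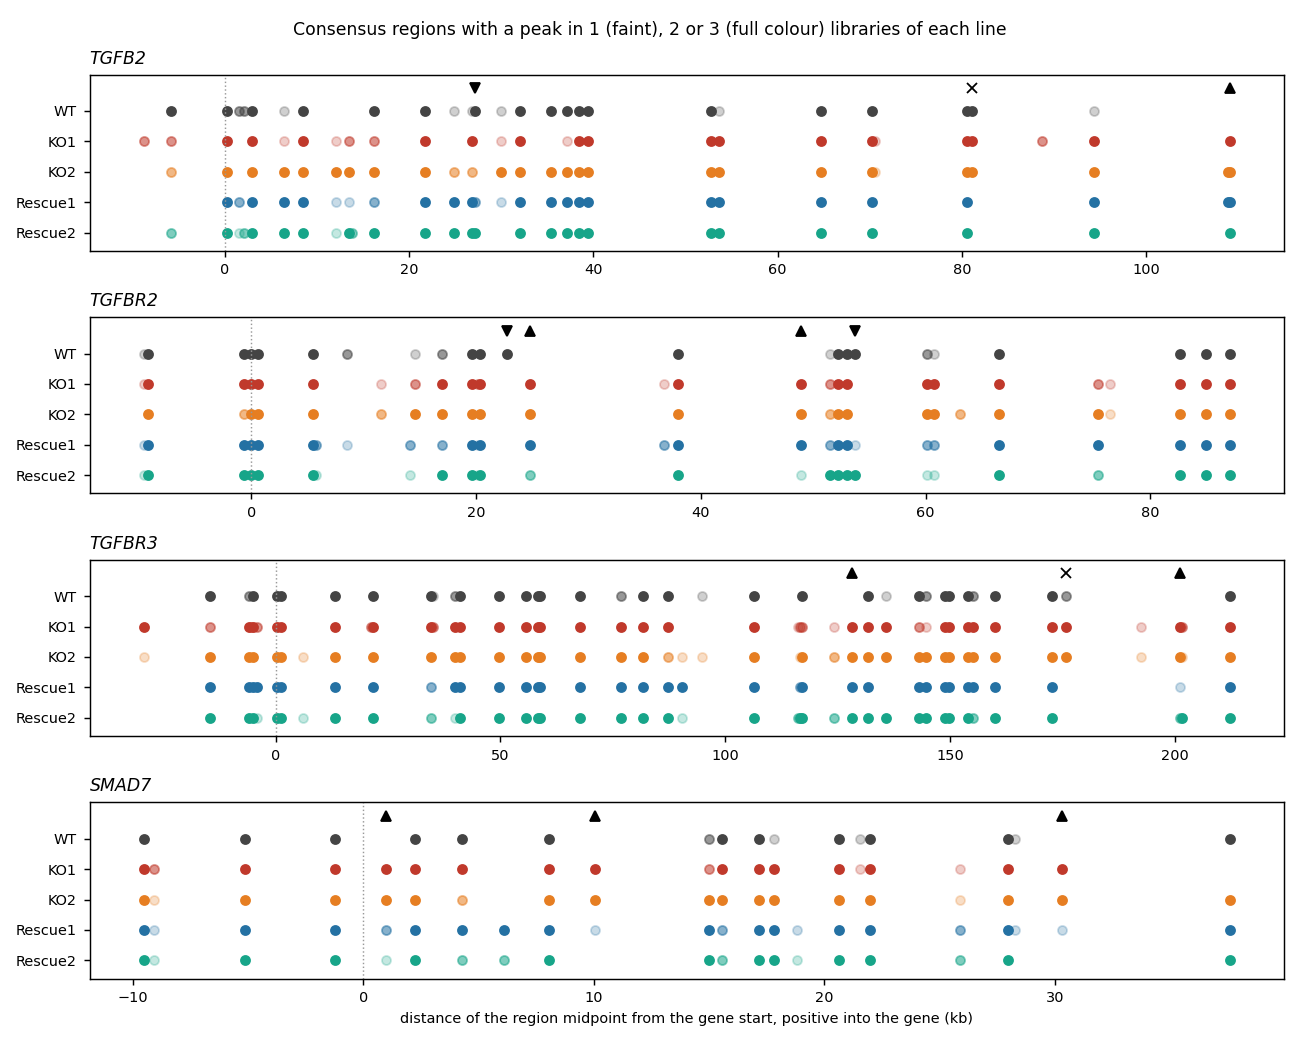
Consensus regions at TGFB2, TGFBR2, TGFBR3 and SMAD7 by the distance of the midpoint from the gene start (kb, positive into the gene), with 1 row per line and colour strength for a peak in 1, 2 or 3 libraries. Upward triangles mark regions gained in KO, downward triangles regions lost in KO, and crosses regions lost in rescue. SMAD7 holds 3 upward triangles, and TGFBR2 and TGFBR3 hold 2 each.

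Regions with a peak in every library cannot change in occupancy, so the rank of their strongest peak was compared as a percentile of fold enrichment within its own list. Of 109 such member regions, 24 (22%) ranked higher in all KO than in all WT libraries and 10 (9.17%) lower, against 11.9% and 8.99% of all such regions. The KO lists were longer than the WT lists on average. When the percentile was taken among the 104967 regions with a peak in all libraries only, a comparison added after the data had been seen, 15 (13.8%) were higher and 10 (9.17%) lower, against 10.4% and 10.6% of all. All 15 were among the 24, and 7 lower regions were shared. The members were thus close to the background under this scale. Against KO, 6 rescue regions ranked higher and 2 lower, against 4.06% and 3.33% of all such regions. Under the second scale these were 5 and 2, of which 3 and 2 were shared.

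**Figure D4:**
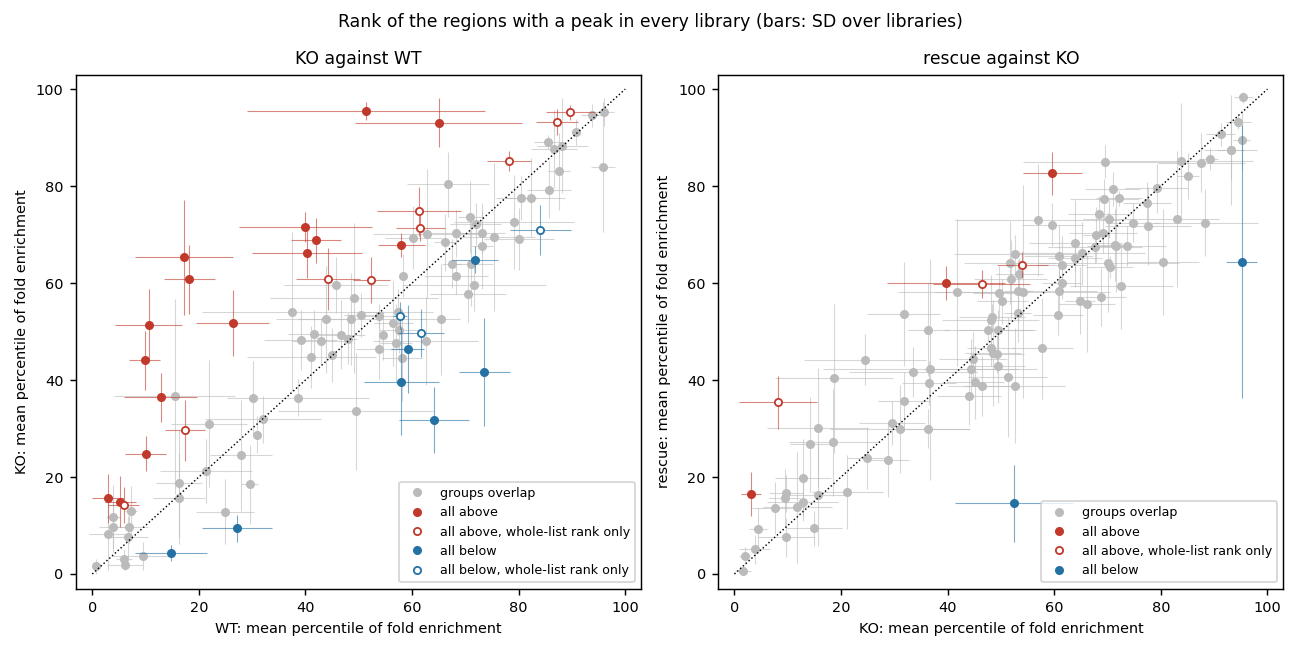
Mean percentile of fold enrichment of the 109 member regions with a peak in all 15 libraries, KO against WT on the left and rescue against KO on the right, with bars for the SD over the libraries of a group. Coloured points are regions whose groups did not overlap, open where this held for the rank within the whole list only, and the dotted line marks equal rank. On the left 24 points are above and 10 below without overlap, and on the right 6 and 2.

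The regions named from here on were chosen for their size of change after the values were seen, and each region described on its own as higher or lower was so on both scales unless stated. Counts per gene are on the whole-list scale. At TGFBR2 the region 66524 bp from the canonical start, within 1 kb of the start of another annotated transcript, had percentiles of 59.5, 26.2 and 68.4 in WT. It reached 92.8 to 97.8 in the 6 KO and 96.2 to 99.4 in the 6 rescue libraries. It was thus among the strongest peaks of the KO and rescue lists and mid-ranked in WT. SMAD4 had a region of the same kind 47171 bp from its start, with 82, 61.8 and 51.1 in WT, 85.7 to 98.4 in KO and 65.2 to 96.9 in rescue.

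TGFB2 held 5 regions of higher rank in KO out of 11 on both scales, all intronic and none lower. The one shown above, 64728 bp from the start, had percentiles of 14.9, 9.6 and 27.5 in WT, 47.6 to 77.7 in KO and 60.4 to 77.5 in rescue. At TGFBR3, a region 5030 bp before the canonical start rose from 22.6, 18.8 and 13.1 in WT to between 50.1 and 68.6 in KO, and stood at 50.6 to 63.7 in rescue. At SMAD3, 8 of 26 regions ranked higher and 3 lower, and 5 and 4 on the second scale. Of the 8, 2 at 20504 and 32953 bp in the first intron rose from means of 9.86 and 10.6 to 44.1 and 51.3. In rescue their means were 36.6 and 40.6. The region at 32953 bp also lay within 1 kb of another annotated transcript start. SMAD3 was also the only member whose start region ranked higher in KO, from 52.4 ± 3.51 (SD, n = 3) to 60.7 ± 4.72 (SD, n = 6), and this was so on the whole-list scale only. In rescue its mean was 53.5 ± 4.24 (SD, n = 6).

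The TGFB1 window went the other way, with 4 of 15 regions lower in KO and 1 higher, against 5 and 0 on the second scale. Of these, only the region 13738 bp from the start overlapped no other protein-coding gene. Those at 57300 bp (lower) and 55447 bp (higher) lay in HNRNPUL1. Those at 31934 and 30218 bp (lower), and at 43612 bp (lower on the second scale only), overlapped CCDC97. The region 57300 bp from the start, beyond the end of the gene and inside the neighbouring gene HNRNPUL1, fell from 69.1, 56.7 and 66.7 in WT to 20.2 to 38.3 in KO and stood at 35.9 to 66.6 in rescue. An intronic region 13738 bp from the start fell from 68, 76.1 and 76.6 to 21.2 to 50.2. There the rescue clones differed, with 41.2 to 49.4 in Rescue1 and 62.4 to 77.5 in Rescue2. At SMAD3 an intronic region 98455 bp from the start was lower in KO than in WT and higher again in rescue. Its percentiles were 56.9, 51.6 and 65.5 in WT, 20.4 to 50.4 in KO and 55.4 to 64 in rescue, and 63.8% of its 31-base stretches are repeated in the genome.

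Against KO, 2 regions ranked lower in rescue. The region of TGFB2 38464 bp from the start had percentiles of 35.6 to 66.6 in KO and 4.4 to 26 in rescue, with 38.2, 44.9 and 48.6 in WT. At TGFBR3, a region 212264 bp from the start, past the end of the gene, had 92.2 to 99.4 in KO and 94.1 to 98 in WT. In rescue it had 61.8, 57.1 and 13.5 in Rescue1 and 92.1, 83.4 and 78.3 in Rescue2, so the fall was larger in the first clone and Rescue2 replicate 1 lay just below KO.

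Other genes of the pathway were taken from role lists of 54 genes, all of which were found. In KO against WT, 5 were higher without overlap, 6 lower, and 0 had an adjusted p under 0.05. Per list the higher and lower counts were 2 and 2 of 9 activators, 2 and 1 of 7 other ligands, 1 and 1 of 9 other receptors and co-receptors, 0 and 1 of 4 adaptors and co-activators, and 0 and 1 of 11 response genes. None of the 4 other SMADs and 10 inhibitors was called. These shares were near the background of all genes given above.

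The activator LTBP1, which anchors latent TGF-β in the matrix, had 8294 ± 489 bases (SD, n = 3) in WT and 10756 ± 785 (SD, n = 6) in KO. ITGB6 and THBS1, which encode an integrin chain and a matrix protein that release latent TGF-β, were lower, at 4966 ± 376 against 3823 ± 378 and 1973 ± 303 against 1520 ± 138. BMP7, a ligand of the BMP branch, was higher, at 1137 ± 156 in WT and 1972 ± 281 in KO, and BMP6 likewise, at 3269 ± 96 and 4222 ± 230. ENG, a co-receptor related to TGFBR3, rose from 1154 ± 86.1 to 1720 ± 221, and the co-activator EP300 fell from 2083 ± 104 to 1599 ± 194. Each of these had exact permutation p = 0.0238 and adjusted p = 0.0998, and 6 of 6 KO libraries on 1 side of WT. CDKN2B, a cell cycle inhibitor induced by TGF-β, was a special case. It held 2364 to 2483 bases in WT, 2001 to 2026 in KO2, but 0 to 176 in KO1, so most of its lower mean in KO came from 1 clone, and whether KO1 still carries the locus was not tested.

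Among the 54 genes in rescue against KO, 6 were higher without overlap and 0 lower, and 11 had an adjusted p under 0.05 (exact permutation). Over all genes 10.1% were higher, 2.75% lower and 23.8% had such a p, so the counts were near the background. EP300 and CREBBP, the paired acetyltransferases that SMADs recruit, were at 2112 ± 180 against 1599 ± 194 and 4826 ± 543 against 3813 ± 155 bases (SD, n = 6 per group). ZFYVE9, an adaptor that brings SMADs to the receptor, was at 3335 ± 407 against 2553 ± 223. LTBP3 was at 4226 ± 245 against 3304 ± 126, INHBA, an activin subunit, at 2550 ± 112 against 2199 ± 82.4, and CDKN2B at 2158 ± 84.2 against 1036 ± 1073, again set by KO1. Each had an adjusted p of 0.0169 over all genes from the exact permutation test. At EP300 the rescue libraries, at 1933 to 2361, overlapped WT at 1972 to 2177.

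Across all 15 libraries, the genes whose bases per Mb under peaks were most like those of TGFBR2 were CAP2 (Pearson r = 0.88), OCIAD2 (r = 0.856) and TRABD2A (r = 0.843). For SMAD7 they were MTMR6 (r = 0.802), SUPT6H (r = 0.795) and EIF2D (r = 0.79). These are descriptions over n = 15 libraries of 5 lines, which share the same clones and list sizes.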

How the data were processed

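ATAC-seq was performed on 15 RPTEC libraries in 5 groups of 3. The authors aligned reads with BWA to hg38 and called peaks for each library with MACS2. Per the labels the versions were BWA 0.7.17 and MACS2 2.2.7.1, and the paper's methods give another BWA version. Duplicate removal and control tracks are not given in the sources used here. Each deposited list holds peak intervals with the fold enrichment of the summit as a ratio over the background of the same library. The −log10 q deposited beside it was used as a filter. The lists contain no read counts, so read depth is unknown and the absence of a peak means a signal below the calling threshold. Fold enrichment was used only as a rank within a list. The labels' design text speaks of duplicates, while 3 libraries per line were given and used.

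No peak on the 24 chromosomes used lay past the end of its hg38 chromosome. Peaks were merged, occupancy and bases under peaks were computed in Python 3.11.15 with numpy 2.4.6, pandas 2.3.3 and scipy 1.17.1, and figures were drawn with matplotlib 3.10.9. Coordinates count from 1. Differences of group means were tested by exact two-sided permutation of library labels (84 and 924 arrangements) for all genes, with Benjamini-Hochberg adjustment over the 19429 tested. A locus or rank was called when the libraries of the 2 groups did not overlap. The scripts were tested on simulated data. Named were all 10 members, every called region, up to 8 called genes of the pathway lists per comparison by absolute log2 ratio, and the 3 genes most alike to each called member. The members, lists and rules were chosen with earlier results of these data known. Some items, sequences among them, are not reported here. P-values over libraries measure the spread between these libraries, which may be technical. Alternatives covered peak strength, list length, scaling, window, overlap, single clones, left-out libraries and a replicate block.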

Additional observations from a re-analysis of the deposited data

Results flagged for a closer look

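Among the 6 rescue libraries, bases under peaks at SMAD3 were lowest in Rescue1 replicate 2, at 11608, while the other rescue libraries held 13010 to 13637. The gap to the nearest library, relative to the range of the group, passed Dixon's 95% limit. In all, 20 groups were tested in this way, and chance flags about 1 in 20.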

How the results depend on the processing

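Peak calls at a threshold and 3 libraries per line limit all values. The shares of all genes or regions called under the other settings are not given here. A changed count of members can thus not be told from a changed background. Calls at loci in KO against WT numbered 2, 0 with a −log10 q of at least 5, 1 with 50 kb flanks (SMAD4, -951 bases, in place of TGFBR2 and SMAD7), 4 in KO1 alone, and 2 to 5 without 1 library (5 without WT replicate 1, when TGFB2, TGFBR3 and SMAD3 were added). The number was also 2 per Mb under peaks, but at TGFBR3 (higher) and SMAD4 (lower), and 2 with 150000 peaks, at TGFB2 and TGFBR3 (both higher). In rescue against KO they numbered 0, 2 per Mb under peaks, 1 by the number of regions, 1 with Rescue1 alone and 0 without any 1 library. Region calls in KO against WT fell from 14 to 9 with a −log10 q of at least 5 and to 9 with 150000 peaks per library. In rescue against KO the 2 region calls became 4 with 150000 peaks, 12 by a majority rule, 8 and 4 against KO1 or KO2 alone, 7 and 9 for Rescue1 or Rescue2 alone, and 2 to 5 without 1 library (5 without Rescue1 replicate 1, 4 without Rescue1 replicate 3). Rank calls in KO against WT rose from 34 to 54 in KO2 alone. In rescue against KO they rose from 8 to 20 and 13 against KO1 or KO2 alone, and to 22 and 19 for Rescue1 or Rescue2 alone. With the replicate number as a block, calls were 4 at loci in KO against WT and 13 for ranks in rescue against KO. The sample titles give a number only and not what it stands for. Deviations of 30 same-numbered pairs correlated at -0.178 to 0.0535, 0 over 0.1. In 60 pairs of other numbers this was -0.123 to 0.161, 2 over 0.1, and 6 of 15 libraries were closest to their own number. Whether libraries of 1 number were prepared together was not tested. The block changed no other count by over 1.5 times.

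Differences that turned sign were mostly near 0. In KO against WT, a −log10 q of at least 5 gave TGFB3 -74.7 and TGFBR1 -53.8 bases. With 150000 peaks per library TGFB3 was at -195, TGFBR1 at -197 and SMAD7 at -21.7. Per Mb under peaks TGFB1 was at -8.48, TGFB3 at -2.38, TGFBR1 at -2.43, SMAD2 at -2.32 and SMAD3 at -7.19. With 50 kb flanks TGFB3 was at -91.2. By number of regions TGFB3 was at -0.5 and SMAD3 at -2.33. In KO1 alone TGFB1 was at -28.3, and in KO2 alone TGFB3 was at -128 and TGFBR1 at -62.3. In rescue against KO, SMAD7 was at 70.5 with a −log10 q of at least 5. With 150000 peaks TGFB1 was at -122, TGFB2 at -240 and SMAD7 at 191. Per Mb under peaks TGFB1 was at -3.02, TGFB2 at -1.84, TGFB3 at -0.478 and TGFBR2 at -3.72. Without flanks TGFB1 was at -23.7, and with 50 kb flanks TGFBR1 was at 106 and SMAD7 at 416. By number of regions TGFBR2 was at -1.17. Against KO1 alone TGFB3 was at -78.5, TGFBR2 at -153 and SMAD7 at 10.5. With Rescue1 alone TGFB1 was at -21.2, TGFB2 at -146 and TGFB3 at -11.2, and with Rescue2 alone TGFBR2 was at -241 and TGFBR3 at 362. Leaving out 1 library gave, in KO against WT, -217 to 329 for TGFB1, -111 to 69.2 for TGFB3 and -23.7 to 122 for TGFBR1. For rescue against KO it gave -7.83 to 338 for TGFB2, -4.77 to 111 for TGFB3, -115 to 279 for TGFBR2 and -224 to 20.4 for SMAD7. The cause of these changes was not tested. TGFB2, TGFBR2 and TGFBR3 were higher and SMAD4 lower in KO than in WT under every alternative run.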
